A study of Mus musculus with 12 samples.

Results

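The comparison set the 3 libraries of population D against the 3 of population A, the opposite ends of a sort of naive CD4 T cells by a reporter of T cell receptor (TCR) signalling and by the surface protein Ly6C. These 6 libraries, of 12 in the series, were chosen by their labels alone. RNA was sequenced from bulk sorted cells of spleen and lymph nodes of 3 untreated mice, and the design implies the question of how gene expression differs between naive cells with the least and the most recent basal TCR signal. All mice carried the transgene Tg(Nr4a1-EGFP)GY139Gsat, in which regulatory sequence of Nr4a1 (the gene of Nur77) drives GFP, and the Foxp3tm1Flv allele, which marks Foxp3-expressing cells with RFP, on a C57/BL6 background. Cells of both populations were CD4+, RFP negative and low in CD44, and received no TCR stimulus. Population A held GFP low, Ly6C positive cells and population D held GFP high, Ly6C negative cells, so that the GFP gate and the Ly6C gate changed together and their parts cannot be told apart. Libraries are called A1 to A3 and D1 to D3 by population and mouse, and each mouse gave 1 library to each population. The labels give no age or sex of the mice.

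Naive T cells receive weak TCR signals from self peptides in the absence of infection. TCR signals switch on Nr4a1 as an immediate early gene, which is what the reporter reads, and Ly6C is known to be lower on naive CD4 T cells with stronger self-recognition. CD5, an inhibitory surface receptor whose level is set during thymic selection, is another established correlate of self-reactivity.

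The promoter of Nr4a1 is shown because the sort reads the activity of its regulatory sequence. RefSeq places it on the plus strand of GRCm38.p6 at chr15:101266596-101266875, which covers 250 bases before and 30 after the transcript start, and the capitals mark the letters TGCGTCA, a match to the core of a CREB- or ATF-type element. The build of the deposited table is given as both mm9 and mm10, and the table itself holds no positions.
Nr4a1 promoter: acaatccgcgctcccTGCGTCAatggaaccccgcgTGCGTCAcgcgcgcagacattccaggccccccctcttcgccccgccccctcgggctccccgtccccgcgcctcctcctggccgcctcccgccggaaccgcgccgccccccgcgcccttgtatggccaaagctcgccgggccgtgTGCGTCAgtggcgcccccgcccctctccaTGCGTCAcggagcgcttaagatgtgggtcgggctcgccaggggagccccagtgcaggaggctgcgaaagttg
Searched on both strands of windows of 300 bases, TGCGTCA occurred at least once in 593 of 27025 RefSeq promoters (2.19%), and 1 promoter, that of Nr4a1, held 4 or more. The NBRE letters AAAGGTCA, the site that Nur77 binds as a monomer, occurred in 394 promoters (1.46%) and in none of the windows of Nr4a1, Dntt and Dap.

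The 6 libraries held between 6.31 (A3) and 8.89 (A2) M reads (M standing for mega), a depth recovered from the steps of the values. Levels are given in RPKM, reads per kilobase of a gene's length and per M reads of its library, and the 10017 genes that averaged 0.5 RPKM or more over these libraries were tested. Defining genes of CD4 T cells, of which 11 of 14 were measured, summed to 2359 to 2445 RPKM in A and 2313 to 2364 RPKM in D. Library A1 stood apart from A2 and A3. The transcription factor Myb, for example, was 58.7, 5.80 and 4.81 RPKM in A1, A2 and A3, and 61.5, 63.0 and 69.6 RPKM in D1, D2 and D3. Results are therefore given with A1, which is the main comparison, and without it. A1 was singled out by its values, its label is used as given, and why it differs was not tested.

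Dntt and Klrd1 fell and Dap rose from A to D, and these were the 3 genes that passed the test with all 6 libraries (limma, Benjamini-Hochberg adjusted p under 0.05 over the 10017 genes). Dntt (Entrez 21673) encodes terminal deoxynucleotidyl transferase, which adds nucleotides at the junctions of rearranging antigen receptor genes. Its level was 14.0, 15.2 and 13.2 RPKM in A1, A2 and A3 and 5.82, 6.16 and 4.98 RPKM in D1, D2 and D3. The A and D libraries lay far apart, and A1 was between A2 and A3. Mean levels were 14.1 ± 1.00 RPKM in A and 5.65 ± 0.606 RPKM in D (SD, n = 3 each), a log2 difference of -1.25 ± 0.09 (SE) on the scale log2(RPKM + 0.5), with adjusted p = 0.00297. With the mouse as a replicate block it was also called (adjusted p = 0.0119). With each library's trend over GC content and gene length removed, the difference of Dntt was -1.26 (adjusted p = 0.0036). Of the populations labelled GFP intermediate, B (labelled Ly6C positive) had 5.52 to 7.91 RPKM of Dntt and C (labelled Ly6C negative) 12.5 to 14.0 RPKM. C thus stood with A, and B next to D. The Ly6c1 levels of B and C went against these labels, as given below, so these Dntt values cannot be assigned to a Ly6C state.

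Klrd1 (Entrez 16643) encodes CD94, a lectin-like receptor best known on natural killer cells and some T cells. It was 16.4, 16.9 and 17.0 RPKM in A1, A2 and A3 and 10.1, 9.80 and 9.35 RPKM in D1, D2 and D3. All A libraries lay close together and above all D libraries. The log2 difference was -0.75 ± 0.06 (adjusted p = 0.00324), and the adjusted p was 0.0963 with the replicate block. With the GC and length trend removed the difference of Klrd1 was smaller, -0.54 (adjusted p = 0.0204). Dap (Entrez 223453), which encodes death-associated protein, a regulator of autophagy, was 26.0, 23.9 and 23.3 RPKM in A1 to A3 and 34.4, 34.6 and 32.9 RPKM in D1 to D3. The groups did not overlap here either, and A1 was the A library nearest to D. Its log2 difference was 0.47 ± 0.06, with an adjusted p of 0.04993 that lay at the threshold and of 0.124 with the replicate block. With the GC and length trend removed the difference of Dap was 0.39 (adjusted p = 0.15). Dap passed in 1 of the 6 fits that left out a library, that without A1, with adjusted p from 0.00025 to 0.26, whereas Dntt and Klrd1 passed in all 6.

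**Figure D1:**
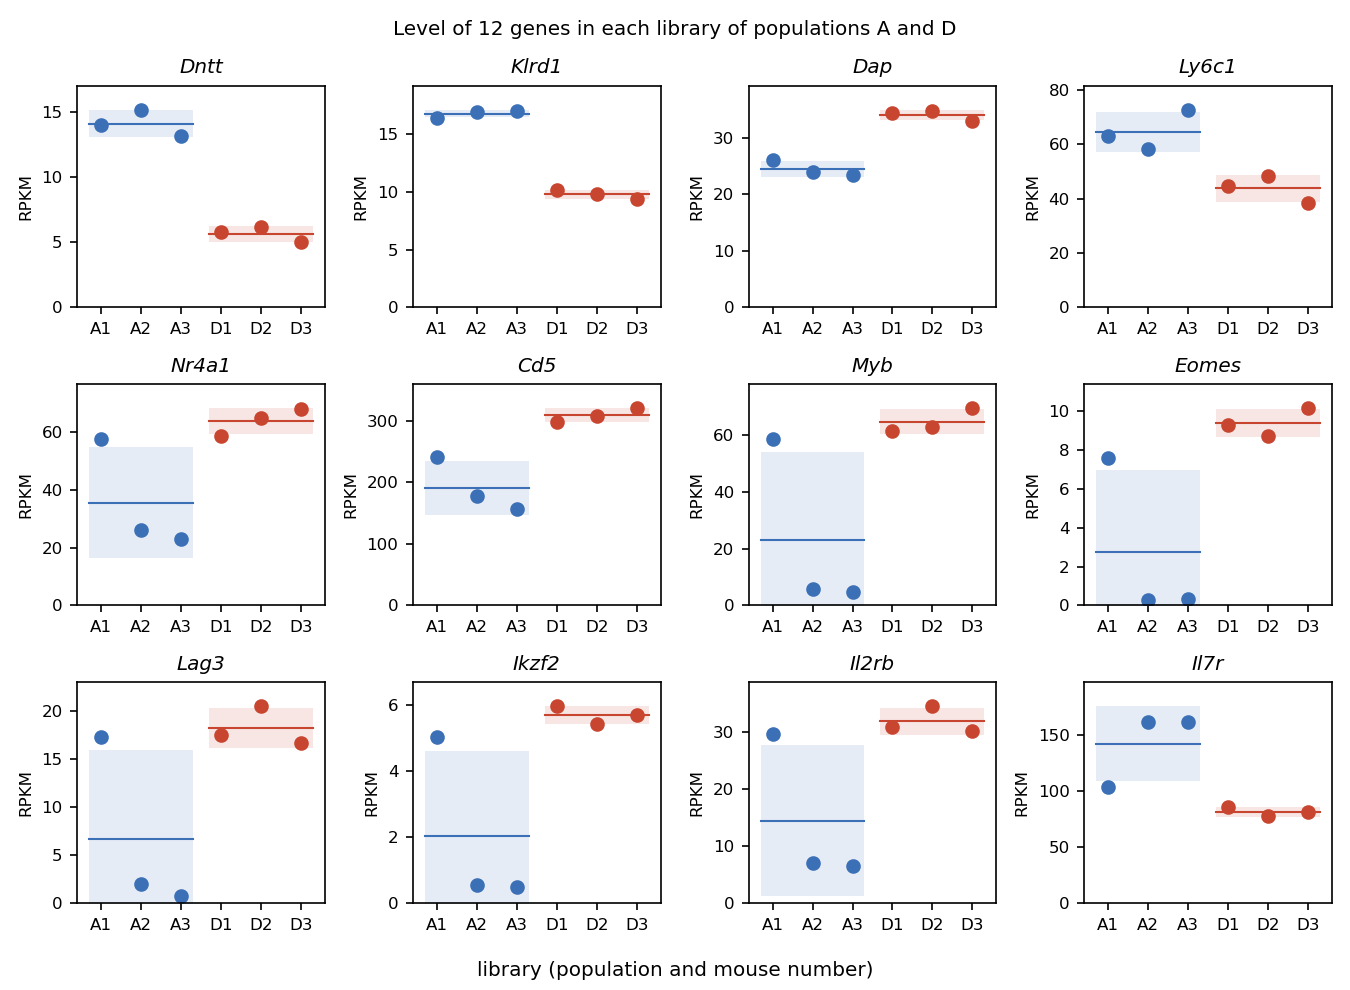
Level of 12 genes in RPKM (linear axes from 0) in each of the 6 libraries, with the mean (line) and 1 SD (band) of the 3 libraries of A (blue) and D (red). A1 lies with A2 and A3 for Dntt and Klrd1, and with the D libraries for Myb, Eomes, Lag3, Ikzf2 and Il2rb, while Cd5 and Il7r in A1 lie between.

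The 6-library calls were few beside the number of genes that leaned one way. The genes called were 0.00998% (higher in D) and 0.02% (lower in D) of those tested, while 2233 genes had an unadjusted p under 0.05. All 3 D values lay above all 3 A values for 1412 genes (14.1%) and below them for 1176 genes (11.7%). Within mice, 2270 genes were higher and 2004 lower in D than in A in all 3. On whole reads recovered from the values, limma-voom called 255 genes, 124 higher and 131 lower in D.

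**Figure D2:**
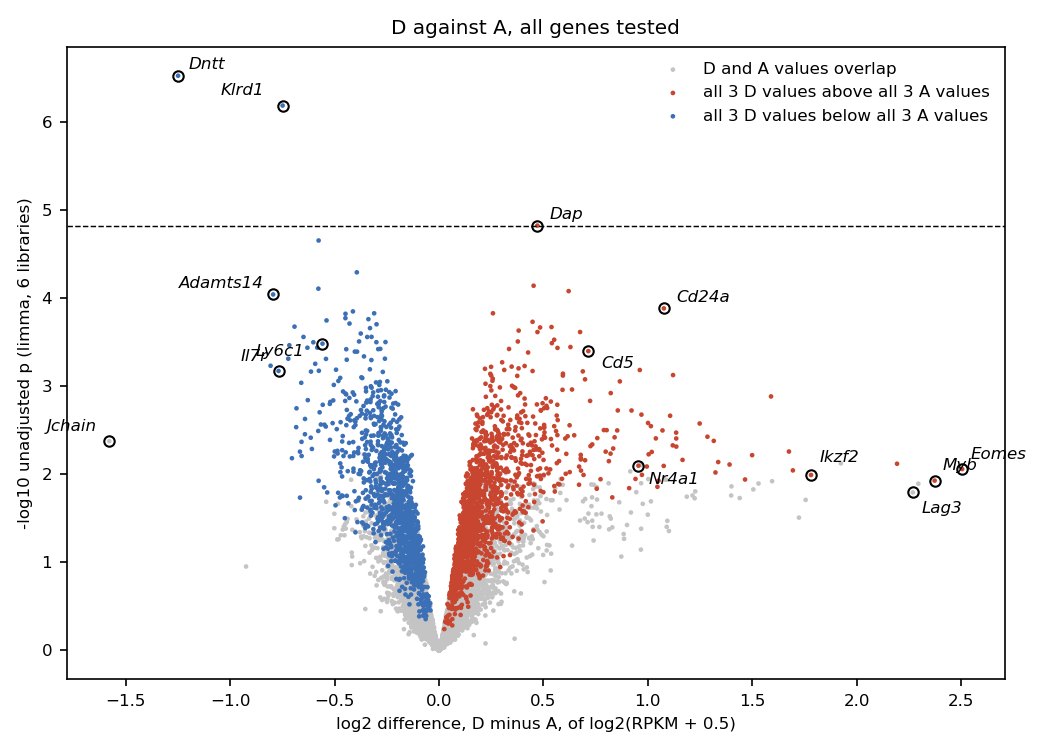
Log2 difference D minus A against -log10 of the unadjusted limma p for the 10017 genes tested in the 6 libraries, coloured by whether the D and A values overlap. Above the dashed line, drawn at the largest p that was called, are Dntt, Klrd1 and Dap, and the genes with the largest differences, such as Myb (2.37) and Eomes (2.51), lie below it.

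Leaving out A1 changed the count by far more than leaving out any other library. Without A1 the same test called 1362 genes, 846 higher in D (8.45%) and 516 lower (5.15%), and the 3 genes above were among them. Leaving out A2, A3, D2 or D3 left 2 genes called each, and leaving out D1 left 9. A1 took no part in calling the 1362 genes, but it counted in the 0.5 RPKM filter that chose the genes tested. The level of A1 in the 1362 genes was described. A1 lay nearer the mean of D than the mean of A2 and A3 in 955 of them and nearer its own population in 407 (29.9%). Placed on a scale where 0 is the mean of A2 and A3 and 1 the mean of D, A1 had a median position of 0.695 over all 1362 genes, 0.763 over those higher in D and 0.55 over those lower. Among the 116 genes that differed by more than 1 on the log2 scale the median position was 0.922, and 96 lay above 0.75 and 2 below 0.25. Over all 1362 genes 172 lay below 0.25, 597 between and 593 above 0.75.

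**Figure D3:**
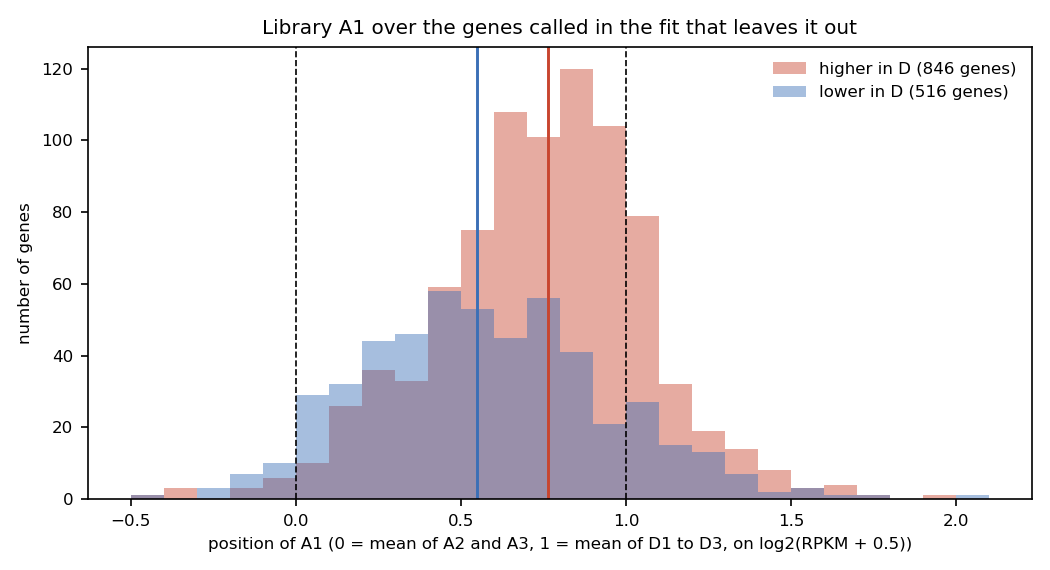
Histogram of the position of A1 for the genes called without it, with 0 the mean of A2 and A3 and 1 the mean of D1 to D3 on log2(RPKM + 0.5), split by direction. Solid lines mark the medians, 0.763 for genes higher in D and 0.55 for genes lower in D.

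The gene behind the reporter and the surface protein of the gate illustrate both behaviours. Nr4a1 (Entrez 15370) was 57.7, 26.1 and 22.9 RPKM in A1, A2 and A3 and 58.7, 64.7 and 67.8 RPKM in D1, D2 and D3. A1 was just below the lowest D library, so that the groups did not overlap. The log2 difference was 0.96 ± 0.28 (adjusted p = 0.12) with all 6 libraries and 1.36 without A1 (adjusted p = 2.3e-06). In the populations labelled GFP intermediate, Nr4a1 was 36.0, 73.3 and 64.6 RPKM in B1, B2 and B3 and 23.4 to 28.3 RPKM in C. B2 and B3 thus stood with D, and C with A2 and A3, so the level did not follow the GFP labels. Ly6c1 (Entrez 17067), which encodes a Ly6C protein, was 63.0, 58.1 and 72.6 RPKM in A1 to A3 and 44.5, 48.4 and 38.2 RPKM in D1 to D3. Here A1 lay between the other A libraries, above every D library, at position 0.0777. Its log2 difference was -0.56 ± 0.10 (adjusted p = 0.0792), and -0.57 without A1 (adjusted p = 0.0071). Reads of Ly6c1 may be shared with its near-identical neighbour Ly6c2, which was not analysed here, so its value is uncertain. Its levels in the populations not compared went against their labels: 37.1 to 50.2 RPKM in B, labelled Ly6C positive, and 59.3 to 67.0 RPKM in C, labelled Ly6C negative.

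Of the other gate genes, Foxp3, the regulatory T cell factor that the RFP gate was set to leave out, was 3.76, 1.15 and 1.53 RPKM in A1 to A3 and 3.77, 3.25 and 3.99 RPKM in D1 to D3. A1 lay at the level of D. The log2 difference was 0.78 ± 0.30 (adjusted p = 0.179), and 1.18 without A1 (adjusted p = 0.00039). Cd44, used as a gate for naive cells, and Cd4 differed less. Cd44 differed by 0.02 ± 0.09 and Cd4 by -0.04 ± 0.04. In bulk samples, fewer cells of a type and less RNA per cell cannot be told apart.

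Of genes that TCR signalling induces early, 36 of 40 were tested and none passed with 6 libraries. Their median log2 difference was 0.385, against 0.0139 over all genes tested, and 9 members did not overlap upward and 1 downward (25% and 2.78%, against 14.1% and 11.7% of all genes tested). Cd5 was 241, 177 and 156 RPKM in A1 to A3 and 299, 309 and 322 RPKM in D1 to D3. No A library reached the D range, with A1 the highest of the 3. Its log2 difference was 0.72 ± 0.13 (adjusted p = 0.0795) and 0.89 without A1 (adjusted p = 8.3e-06). Cd6, a related scavenger receptor, gave 141, 108 and 98.2 RPKM in A1 to A3 and 175, 181 and 193 RPKM in D1 to D3. The order of its A libraries was the same as that of Cd5. Without A1, 21 early response genes were called higher, among them Nr4a2, Nr4a3, Egr1, Egr2, Egr3 and Irf4, transcription factors of the immediate early response, and 1, Cd40lg, was called lower, against 8.45% and 5.15% of all genes. Their median difference was then 0.551, and the called members had a median A1 position of 0.904. Cd40lg, the CD40 ligand of helper T cells, was 87.1, 118 and 108 RPKM in A1 to A3 and 82.5, 75.4 and 84.5 RPKM in D1 to D3.

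Inhibitory receptors, which dampen T cell activation, were tested for 15 of 20 genes, and none passed with 6 libraries. Their median log2 difference was 0.676, with 5 not overlapping upward and 2 downward (33.3% and 13.3%, against 14.1% and 11.7% of all genes). Lag3, which binds MHC class II, was 17.3, 2.02 and 0.791 RPKM in A1 to A3 and 17.5, 20.5 and 16.6 RPKM in D1 to D3. A1 was within the D range, and A2 and A3 were several-fold below it. The log2 difference was 2.27 ± 0.77 (adjusted p = 0.148), and 3.37 without A1 (adjusted p = 8.3e-06). Tigit was 3.48, 1.29 and 1.48 RPKM in A1 to A3 and 6.62, 3.72 and 4.31 RPKM in D1 to D3. No A library overlapped D for this receptor. Without A1, 10 members were called higher, including Pdcd1 and Ctla4, and Lair1, an inhibitory collagen receptor, was called lower, against 8.45% and 5.15% of all genes. Lair1 was 2.3, 3.50 and 3.89 RPKM in A1 to A3 and 1.71, 2.02 and 1.64 RPKM in D1 to D3.

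Genes associated with anergy, a state of blunted response, were tested for 28 of 30 members, and 12 did not overlap upward and 2 downward (42.9% and 7.14%, against 14.1% and 11.7% of all genes), with a median log2 difference of 0.694. None passed with 6 libraries. Without A1, 22 of 28 were called higher and 1 lower, against 8.45% and 5.15% of all genes, with a median of 0.907. The list shares members with the early response and inhibitory receptor lists. Ndrg1, a stress-response gene linked to anergy, was 2.64, 2.07 and 1.70 RPKM in A1 to A3 and 3.76, 3.49 and 3.86 RPKM in D1 to D3, and did not overlap. The lower member, Sirt1, a deacetylase, was 18.6, 18.5 and 19.1 RPKM in A1 to A3 and 16.3, 13.7 and 13.9 RPKM in D1 to D3. A1 kept the level of A2 and A3 for Sirt1, at position 0.0496.

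The 17 tested regulatory T cell genes, of 20, had the highest list median, 0.967 (1.32 without A1), and 8 did not overlap upward (47.1%, against 14.1% of all genes). None was called with 6 libraries, and 15 were called higher without A1, against 8.45% of all genes. Ikzf2, which encodes Helios, was 5.02, 0.569 and 0.492 RPKM in A1 to A3 and 5.98, 5.43 and 5.69 RPKM in D1 to D3. A1 was just below the D range and A2 and A3 far below it. Il2rb, the shared beta chain of the IL-2 and IL-15 receptors, was 29.7, 7.10 and 6.53 RPKM in A1 to A3 and 30.9, 34.6 and 30.3 RPKM in D1 to D3. Foxp3 itself stood at 3.25 to 3.99 RPKM in D, and its part in these values was not tested. Of the 5 Ikaros factors, Ikzf2, Ikzf3 and Ikzf4 were called higher without A1, and Ikzf5 was 14.9, 15.2 and 15.6 RPKM in A1 to A3 and 14.2, 13 and 13 RPKM in D1 to D3.

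T follicular helper genes were tested for 23 of 24 members, with a median log2 difference of 0.605 and 7 not overlapping upward and 2 downward (30.4% and 8.7%, against 14.1% and 11.7% of all genes). None passed with 6 libraries. Without A1, where 8.45% of all genes were called higher and 5.15% lower, 17 of these 23 were called higher and 2 lower. Cxcr5, the chemokine receptor that guides cells to follicles, was 12.6, 4.83 and 3.67 RPKM in A1 to A3 and 12.7, 13.5 and 13.4 RPKM in D1 to D3. A1 sat next to the D libraries. Tox2, a nuclear factor, was 3.26, 0.940 and 0.852 RPKM in A1 to A3 and 4.09, 3.70 and 3.79 RPKM in D1 to D3, with A1 below D and far above A2 and A3. The lower members without A1 were Il6ra and Cd40lg.

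Among 22 of 26 tested T cell developmental factors, Dntt was the 1 called with 6 libraries, and 7 did not overlap upward and 2 downward (31.8% and 9.09%, against 14.1% and 11.7% of all genes). Their median was 0.0281. Myb, which is required in progenitors and in thymocytes, had a log2 difference of 2.37 ± 0.75 (adjusted p = 0.134) with 6 libraries and 3.49 (adjusted p = 1.3e-08) without A1, at the levels given above. Outside A and D, Myb was 6.44, 72.7 and 66.5 RPKM in B1, B2 and B3 and 5.25 to 6.28 RPKM in the C libraries, so that mouse 1 of A and mouse 1 of B were each far from their population's other libraries. For Dntt, by contrast, A1 held the level of A2 and A3. Id3, an inhibitor of E proteins, was 37.9, 26.0 and 23.5 RPKM in A1 to A3 and 38.6, 44.8 and 47.8 RPKM in D1 to D3, and Tcf3, an E protein, was 28.9, 26.0 and 25.3 and 30.4, 32.6 and 31.6 RPKM. Neither overlapped. Themis, a thymocyte signalling adaptor, was 28.5, 30.1 and 30.5 RPKM in A1 to A3 and 27.2, 24.3 and 22.1 RPKM in D1 to D3, lower in every D library.

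Genes of the naive state and of homing, 24 of 25 tested, had a median of -0.0267, and 1 did not overlap upward and 3 downward (4.17% and 12.5%, against 14.1% and 11.7% of all genes). Il7r, the receptor for the survival cytokine IL-7, was 104, 162 and 162 RPKM in A1 to A3 and 86.2, 77.5 and 81.7 RPKM in D1 to D3. A1 was nearer D than A2 and A3 were, and still above every D library. Its log2 difference was -0.77 ± 0.15 (adjusted p = 0.0905) with 6 libraries and -0.98 (adjusted p = 2.2e-06) without A1. Bcl2, a survival factor, was 25.2, 30.4 and 31.4 RPKM in A1 to A3 and 25.6, 23.3 and 24 RPKM in D1 to D3, where A1 fell inside the D range. Itgal, a chain of the integrin LFA-1, was 153, 121 and 113 RPKM in A1 to A3 and 152, 165 and 164 RPKM in D1 to D3. Without A1, 5 of the 24 members were called lower and 3 higher, against 5.15% and 8.45% of all genes.

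Of effector and cytotoxic genes 10 of 30 were tested. Klrd1 was the 1 that passed with 6 libraries, while 4 did not overlap downward and 1 upward (40% and 10%, against 11.7% and 14.1% of all genes). The upward member was Eomes, a T-box factor of cytotoxic and memory cells, at 7.62, 0.298 and 0.315 RPKM in A1 to A3 and 9.30, 8.73 and 10.2 RPKM in D1 to D3. A1 was near D and the other A libraries were far below both. Its log2 difference was 2.51 ± 0.75 (adjusted p = 0.124), and 3.62 without A1. The downward members besides Klrd1 were Prf1, Il18r1 and Prdm1. Prf1, which encodes perforin, was 14.7, 16.4 and 15.4 RPKM in A1 to A3 and 12.1, 12.9 and 12.6 RPKM in D1 to D3, and Il18r1, a cytokine receptor, was 15.6, 19.6 and 21.8 and 13.5, 12.0 and 11.9 RPKM. Neither overlapped, and neither passed with 6 libraries.

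The TCR complex and proximal signalling genes, all 30 tested, had a median of 0.0368, with 7 not overlapping upward and 3 downward (23.3% and 10%, against 14.1% and 11.7% of all genes). Fyn and Zap70, kinases of the proximal pathway, were 114 to 130 and 73.5 to 83.7 RPKM in A and 142 to 146 and 85.7 to 94.9 RPKM in D. Both were higher in every D library than in every A library. Negative regulators of TCR signalling, 43 of 46 tested, had a median of 0.0774, with 7 upward and 3 downward (16.3% and 6.98%), shares near those of all genes (14.1% and 11.7%). Dgkz, which removes diacylglycerol, was 135, 93.1 and 93.5 RPKM in A1 to A3 and 140, 153 and 157 RPKM in D1 to D3, and Pag1, an adaptor that recruits the inhibitory kinase Csk, was 34.5, 41.0 and 39.1 and 33.9, 31.2 and 31.6 RPKM. No member of either list passed with 6 libraries. Without A1, 6 were called higher and 3 lower in the complex list, and 12 higher and 6 lower among the negative regulators, against 8.45% higher and 5.15% lower of all genes.

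The largest differences among genes whose groups did not overlap included, besides Myb, Eomes, Ikzf2 and Il2rb, Slamf7, a receptor of the SLAM family. It was 1.4, 0.238 and 0.149 RPKM in A1 to A3 and 2.46, 2.47 and 2.33 RPKM in D1 to D3. A1 lay between the other A libraries and D. Cldn10, Lad1, Itih5, Hivep3 and Tmevpg1, a long noncoding RNA beside Ifng, completed the 10 with log2 differences of 1.34 to 1.70, at positions of A1 from 0.861 to 0.901. Tmevpg1 is uncertain, since strand use in counting is unknown.

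Downward, the other genes without overlap and with the largest differences were Zfp40, Adamts14, Arhgap5, Pdlim4, Gpr34, Myo6, Il7r and Lair1, with log2 differences of -0.81 to -0.68. Adamts14, a procollagen-processing protease, was 5.55, 5.96 and 7.45 RPKM in A1 to A3 and 3.27, 3.76 and 3.20 RPKM in D1 to D3, and Pdlim4, a cytoskeletal adaptor, was 27.2, 33.1 and 38.2 and 22.4, 19.7 and 17.1 RPKM. A1 was the A library nearest D for both. None of these genes passed with 6 libraries (adjusted p from 0.0792 to 0.114), and all did without A1.

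The fit without A1 added genes of large difference, in most of which A1 overlapped D. Tnfrsf9, the costimulatory receptor 4-1BB, was 20.4, 1.42 and 1.93 RPKM in A1 to A3 and 24.3, 19.1 and 23.2 RPKM in D1 to D3, with a log2 difference of 2.30 ± 0.74 (adjusted p = 0.136) with 6 libraries and 3.39 without A1 (adjusted p = 3.0e-07). Arhgap20, Rgs16 and Spry1, regulators of small GTPase, G protein and growth factor signals, had differences of 2.66 to 2.72 without A1, with A1 at positions 0.88 to 1.08. A1 was inside the D range for all 3. Jchain, the joining chain of secreted antibody, was 2.24, 4.23 and 6.33 RPKM in A1 to A3 and 0.515, 2.33 and 0.658 RPKM in D1 to D3, and Jaml, an adhesion molecule, was 2.32, 3.48 and 3.93 and 2.21, 1.46 and 1.89 RPKM. Jchain overlapped through D2, which exceeded A1, and Jaml did not overlap.

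Cd24a, a surface glycoprotein of immature and activated lymphocytes named here after its values were seen, was higher in D with A1 at the level of A. It was 1.23, 1.30 and 1.22 RPKM in A1 to A3 and 2.32, 3.42 and 4.07 RPKM in D1 to D3. All 3 A libraries were close together and below D. Its log2 difference was 1.08 ± 0.17 (adjusted p = 0.0792) with 6 libraries and 1.07 without A1 (adjusted p = 0.0046), and it was called when D1 was left out.

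**Figure D4:**
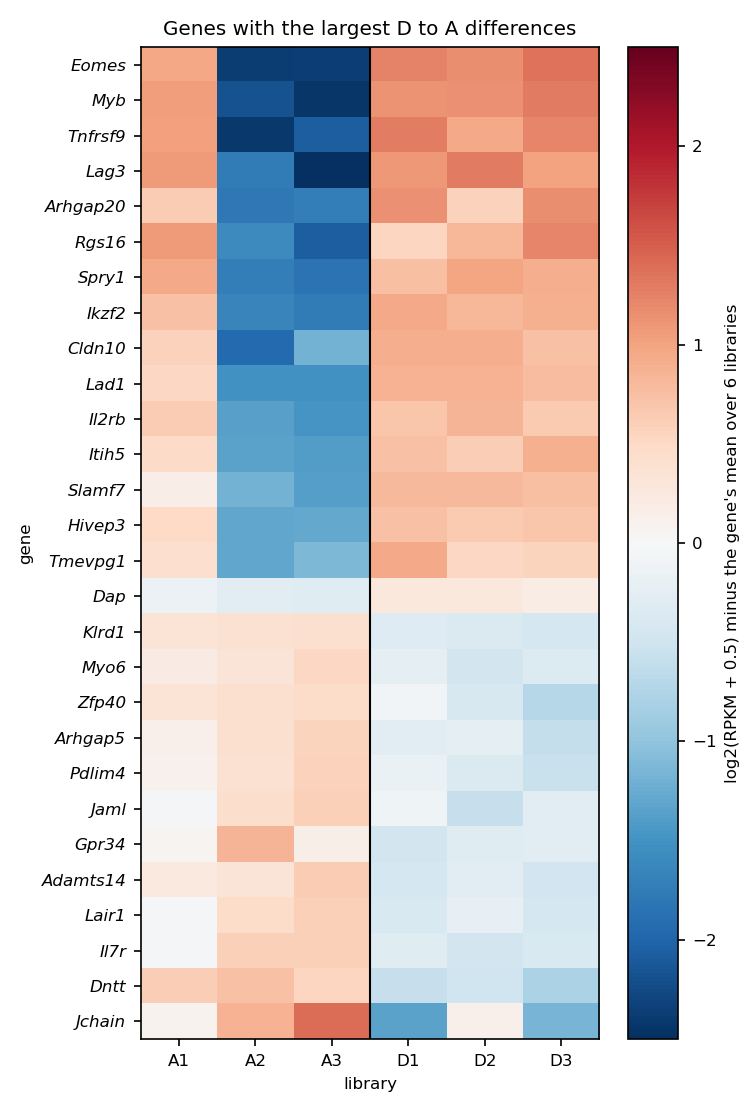
Log2(RPKM + 0.5) minus each gene's mean over the 6 libraries for the genes with the largest differences, in columns A1 to D3, ordered by the difference without A1. In most rows A1 carries the colour of the D libraries at the top, while at the bottom it lies with A2 and A3 for Dntt, Klrd1 and Zfp40 and between for Il7r and Lair1.

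The medians of the gene lists differed in size. Leaving aside the marker lists of other cells, the 6 lists with the highest medians over 6 libraries (regulatory T cell, Ikaros, anergy, inhibitory receptors, follicular helper and early response) were also the 6 highest without A1, and they share members. Since the lists were chosen with earlier results of these data known, they are no independent evidence of direction. GC content also moved with the difference: genes with no overlap upward had a median GC content of 53.7% and downward of 43.2%, against 49.4% over the tested genes with a known transcript. Across these 9842 genes the correlation of D minus A with GC was 0.16, 0.285 and 0.354 in mice 1, 2 and 3. This is a description over genes that share libraries. The part of GC content in the result was not tested beyond the fits with the GC and length trend removed. Such a fit called 2 genes (Dntt and Klrd1) with 6 libraries, 1 gene (Dntt) with the replicate block added, and 1116 genes without A1.

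**Figure D5:**
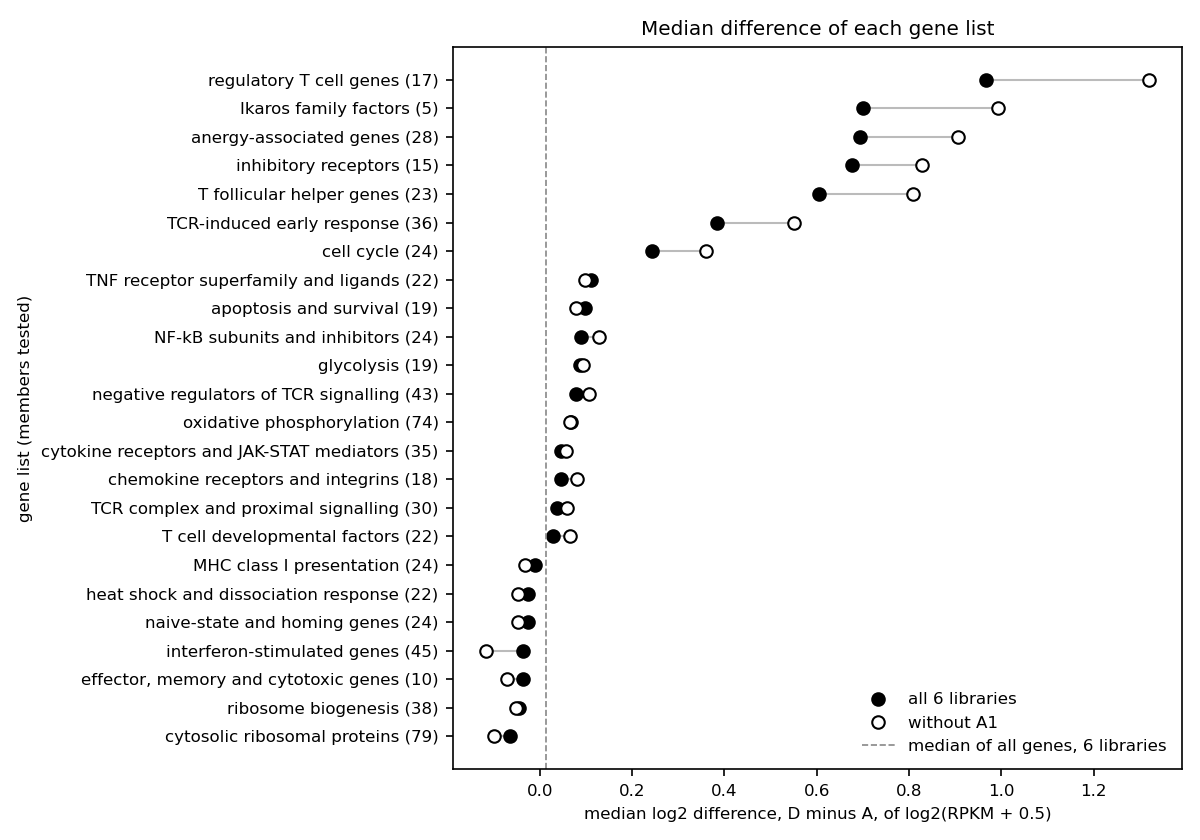
Median log2 difference D minus A of each gene list, marker lists of cell types left out (number of members tested in brackets) with all 6 libraries (filled) and without A1 (open), beside the median of all tested genes (dashed). The regulatory T cell list has the highest median of those drawn, 0.967 and 1.32 without A1, and most other lists lie near 0.

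Markers of other cells were sparse. The defining B cell, NK cell and myeloid genes were largely not analysed here: of 18 B cell genes 3 were measured, of 13 NK genes 1, of 18 myeloid genes 3. Their summed levels were 7.32 to 14.5 RPKM in A and 11.2 to 28.5 RPKM in D for B cells, and 21.3 to 25 and 24.3 to 26.4 RPKM for myeloid cells. The 2 tested B cell genes, Cd79a and Cd74, had a median of 0.671, and neither was called with or without A1. The 3 of 9 measured plasma cell genes summed to 22.5 to 24.4 RPKM in A and 18.3 to 23.5 RPKM in D. Most of that sum was Xbp1, at 15.8 to 18.5 RPKM in A and 16.5 to 19.8 RPKM in D. Of 11 stromal and endothelial genes 1 was measured, Pecam1, at 69.7 to 75.2 RPKM in A and 73.6 to 77.2 RPKM in D. The others, such as Col1a1, Pdgfra and Cdh5, were not analysed here, so Pecam1 alone is no measure of such cells. The 3 of 4 measured CD8 T cell genes summed to 35.8 to 42.3 RPKM in A and 33.8 to 36.2 RPKM in D. Without A1, 2 plasma cell genes (Jchain and Prdm1), 2 CD8 T cell genes and 1 NK gene (Prf1) were called lower. The 2 tested of 12 gamma delta and NKT genes were called higher. Of all genes, 5.15% were called lower and 8.45% higher in that fit. Haemoglobin and platelet genes, 3 of 10, summed to 10.7, 177 and 134 RPKM in A1 to A3 and 139, 22.5 and 146 RPKM in D1 to D3, so that A1 and D2 were low. Their part in the D to A differences was not tested.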

How the data were processed

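RNA-seq libraries of 6 samples, 3 of population A and 3 of population D, were compared, with groups and mouse numbers taken from the labels. The authors deposited 1 table of RPKM values, per the file headers, for 10073 genes, 3 of them without a symbol. Per the submitters' processing notes, STAR and the builds mm9 and mm10 were used, while the counter, annotation and strand setting were not given in the sources used here. Per the labels' protocols, cDNA was made with the SMART-seq v4 kit and libraries with the NexteraXT kit.

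The 10017 genes averaging 0.5 RPKM or more in these 6 libraries were analysed on log2(RPKM + 0.5), which understates the change of low genes, with limma 3.58.1 in R 4.3.3 (mean-variance trend, no block, two-sided, Benjamini-Hochberg adjustment over all genes tested, threshold 0.05). The 3 libraries of a group come from 3 mice, the same in both groups, and p-values rest on the spread among these libraries. Differences between mice and between single libraries cannot be told apart in that spread. Steps of the RPKM values corresponded to whole reads (tolerance 0.1 read) for 100.0% of values checked, which gave the depth and the input of limma-voom. The fits were also run on simulated data in which A1 was drawn like A2 and A3, so that run cannot speak to the effect of A1. For GC content, each symbol was matched to its longest transcript in GENCODE M21 (98.3% of genes).

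The labels give same-numbered libraries the same mouse, and the correlation of their deviations from the population means was -0.107, -0.0742 and -0.0723. For A and D libraries of different mice it ran from -0.133 to 0.187. These values are a description, and whether the pairing matters was not tested by them. The members and the 33 gene lists were chosen with earlier results of these data known. Named genes were: every gene called, the 10 largest differences in each direction without overlap (at least 2 RPKM, clone and predicted-gene names left out), up to 4 members of each list by p, the 10 largest each way in the leave-one-out fit with most calls, the sort checks, and list members that moved against their list, which were named after their values were seen, as were the list members given by name alone. Ly6c2 was not analysed here. Further list members that the rule selects, and the summed level of a marker list that rests on one, are not reported here. There were 20 alternatives planned and 5 added after seeing the data. Python 3.11.15, numpy 2.4.6, pandas 2.3.3 and matplotlib 3.10.9 were used for the rest.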

Additional observations from a re-analysis of the deposited data

How the results depend on the processing

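Dntt was called in every one of the 20 other settings chosen at the outset, Klrd1 in 16 and Dap in 6. Against 3 genes called (1 higher and 2 lower in D), 1 gene, lower in D, was called with 12 libraries, with the replicate block, with both, and with the replicate block with the GC and length trend removed, and 0 were called higher. With a pseudocount of 0.1, no filter, quantile normalization, the GC and length trend removed or no mean-variance trend, 2 genes were called lower and 0 higher. A filter of 5 RPKM and robust moderation gave 4 (1 higher, 3 lower). Limma-voom called 255 (124 higher, 131 lower), of which 250 were also called by limma without A1. Leaving out 1 library at a time gave 2 to 1362 called, 0 to 846 higher and 2 to 516 lower, and the upper ends are those without A1; without D1 the counts were 9, 1 and 8. Without A1 and with a second change, chosen after seeing the data, the counts were 1361 (745 higher, 616 lower) with median rescaling, 1254 (672 and 582) with quantile normalization, 1116 (662 and 454) with the GC and length trend removed, 1739 (969 and 770) with limma-voom and 362 (256 and 106) with 12 libraries. The share higher in D was 62.1% without A1, 54.7% with median rescaling, 53.6% with quantile normalization and 70.7% with 12 libraries. The fits with 12 libraries also take in the spread within B and C, where single libraries stood apart. Jchain was 1.42, 0.555 and 709 RPKM in C1, C2 and C3, and Myb in B1 differed from B2 and B3 as given above. The cause of the changes in these counts and shares was not tested.

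Of 126 named genes, 6 changed sign in some setting. Over the fits leaving out a library the log2 difference ran from -0.02143 to 0.1266 for Xbp1, -0.1384 to 0.03194 for Itgam, -0.9806 to 1.16 for Hba-a2, -1.006 to 1.155 for Hbb-bs, -0.07839 to 0.03722 for Itga2b and -0.05877 to 0.07596 for Cd44. Without A1, Hba-a2 was -0.9981 with median rescaling, -1.001 with quantile normalization, -1.07 with the GC and length trend removed, -1.016 with limma-voom and -0.9806 with 12 libraries. Hbb-bs was -1.023, -1.013, -1.04, -1.038 and -1.006 in the same order, and Itga2b was 0.01342 with 12 libraries. With 3 libraries a group, from the same 3 mice in both groups, and 6.31 to 8.89 M reads, small differences of low genes are not detectable.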

Other observations

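No member of the gene lists not described above passed the test with 6 libraries. Of all genes tested, 14.1% were without overlap upward and 11.7% downward. The oxidative phosphorylation genes (74 tested) had 14 upward (18.9%) and 0 downward, with a median log2 difference of 0.0665. The cytosolic ribosomal proteins (79) had 0 upward and 18 downward (22.8%), with a median of -0.0658. Uqcr10, a subunit of complex III, was 50.9, 48.2 and 51.8 RPKM in A1 to A3 and 55.1, 57.6 and 58.6 RPKM in D1 to D3, and Rpl14, a protein of the large ribosomal subunit, was 654, 691 and 745 and 602, 632 and 623 RPKM. Neither overlapped.

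Interferon-stimulated genes, all 45 tested, had 3 upward and 6 downward (6.67% and 13.3%, against 14.1% and 11.7% of all genes). Without A1, 1 was called higher and 12 lower, against 8.45% and 5.15% of all genes. Their median with 6 libraries was -0.0359, and its sign changed when D2 was left out. Ly6a, which encodes Sca-1, was 60, 65.0 and 70.7 RPKM in A1 to A3 and 50.6, 54.3 and 50.2 RPKM in D1 to D3, while Ifi27l2a was 59.6, 61.7 and 58.5 and 80.3, 64.0 and 79.7 RPKM. B2m, the light chain of MHC class I, was 1050, 1118 and 1134 RPKM in A1 to A3 and 985, 952 and 958 RPKM in D1 to D3.

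Cell cycle genes (24 of 35 tested) had 5 upward and 1 downward (20.8% and 4.17%, against 14.1% and 11.7% of all genes) and a median of 0.244. Without A1, 11 were called higher and 1, Kif23, lower, against 8.45% and 5.15% of all genes. Stmn1, a microtubule regulator of dividing cells, was 31.1, 22.2 and 19.6 RPKM in A1 to A3 and 33.6, 35.7 and 35.1 RPKM in D1 to D3. Shares of the lists that follow stand against the same 14.1% upward and 11.7% downward of all genes. Cytokine receptors and JAK-STAT mediators (35 of 37) had 10 upward and 5 downward (28.6% and 14.3%). Tumour necrosis factor receptors and ligands (22 of 31) had 6 and 3 (27.3% and 13.6%), and chemokine receptors and integrins (18 of 31) 4 and 1 (22.2% and 5.56%). NF-kB genes (24) had 4 and 2 (16.7% and 8.33%), and apoptosis genes (19 of 21) 4 and 0 (21.1% and 0%). Il10ra, the IL-10 receptor, was 6.94, 6.64 and 6.59 RPKM in A1 to A3 and 10.1, 8.83 and 8.79 RPKM in D1 to D3, where A1 kept the level of A. Glycolysis genes (19 of 22) had 4 upward and 2 downward (21.1% and 10.5%). Pdk1, which restrains pyruvate dehydrogenase, was 90.4, 94.2 and 103 RPKM in A1 to A3 and 73.3, 74.5 and 70.2 RPKM in D1 to D3. Ribosome biogenesis genes (38) had 4 upward and 7 downward (10.5% and 18.4%). MHC class I genes (24 of 25) had 3 and 3 (12.5% and 12.5%), near the shares of all genes, and heat shock and dissociation genes (22 of 24) 2 and 1 (9.09% and 4.55%).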
